A study of Homo sapiens with 28 samples.

Results

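The genes described here encode the subunits of the respiratory chain and of ATP synthase that are made from nuclear DNA. They were chosen by symbol (NDUFA, NDUFAB, NDUFB, NDUFC, NDUFS and NDUFV, SDHA to SDHD, UQCR, CYC1, COX4 to COX8 and ATP5), leaving out assembly factors, the inhibitor ATP5IF1, pseudogenes and antisense transcripts. This gave 83 of the 16482 genes in the table of all reads and 78 of the 13029 genes in the table of T>C reads. By complex these were 37 genes of complex I, 4 of complex II, 9 of complex III, 16 of complex IV and 17 of complex V. The study labelled new RNA in MDA-MB-453, a luminal, HER2-positive breast cancer cell line, and separated a nuclear from a cytoplasmic fraction with digitonin. The 10 groups were JQ1-VHL, JQ1, IBET151-VHL, IBET151 and DMSO in each fraction, with 3 libraries each except for IBET151, which had 2. JQ1 and IBET151 are inhibitors that occupy the acetyl-lysine pockets of BET proteins, and a VHL compound carries in addition a ligand of the VHL ubiquitin ligase, which can direct the bound protein to the proteasome. Drugs were present for 3 h and 4-thiouridine, at 0.1 mM, for the last 60 min, also in the DMSO cells.

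4-thiouridine is taken up into RNA in place of uridine and, once alkylated, is read as C, so that a read with T-to-C conversions (a T>C read) marks RNA made during the labelling. The T>C share is the T>C reads as a percentage of all reads of a gene. Libraries were made from the 3′ ends of polyadenylated RNA, so values were compared mainly between samples. Where T>C shares of genes, complexes or all genes are set side by side, this is a description only. The share depends in part on the T bases of the sequenced end. The deposited values are scaled to ERCC spike-in RNA that was added per mass of RNA. A level is therefore a level per mass of RNA of that fraction and not per cell, and fewer cells and less RNA per cell cannot be told apart. The labels give neither the drug doses nor whether replicates were separate cultures, so the p-values measure the spread between these libraries, which may be technical. All libraries analysed here had received 4-thiouridine, so the share of T>C reads that arises without it is not known.

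The respiratory chain carries electrons from NADH (complex I) and succinate (complex II) through complex III to oxygen at complex IV, and the proton gradient built on the way drives ATP synthase (complex V). Its core subunits come in part from mitochondrial DNA and all others from nuclear genes, whose mRNAs are known to be abundant and long-lived in most cells. Nuclear transcription of these genes is known to depend on NRF1, GABP (an ETS factor) and the PGC-1 family of coactivators.

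The promoters of 69 of the 83 genes were matched in RefSeq (GRCh38.p14, 250 bases before to 50 bases after the start). The NRF1 core (GCGCA followed by TGCGC), searched like the other motifs on both strands, was found in 4 of the 69 (5.80%), against 1.24% of all 35116 promoters. The palindrome TGCGCA, which can overlap the core but does not lie inside it, was found in 20 (29.0%), against 8.24% of all. The ETS core CCGGAAG was likewise found in 20 (29.0%), against 10.3% of all, and TATAAA in 7 (10.1%), against 11.5% of all. The median number of CG pairs in the window was 23 for these genes and 14 for all promoters. The windows of SDHB, SDHD, COX8A and COX8C are shown because they belong to the complex II genes and the COX8 isoform pair described further on, with matches to TGCGCA, the NRF1 core and CCGGAAG on either strand in capitals. SDHB lies at chr1:17053983-17054282, minus strand, SDHD at chr11:112086623-112086922, plus strand, COX8A at chr11:63974370-63974669, plus strand and COX8C at chr14:93346932-93347231, plus strand.
SDHB: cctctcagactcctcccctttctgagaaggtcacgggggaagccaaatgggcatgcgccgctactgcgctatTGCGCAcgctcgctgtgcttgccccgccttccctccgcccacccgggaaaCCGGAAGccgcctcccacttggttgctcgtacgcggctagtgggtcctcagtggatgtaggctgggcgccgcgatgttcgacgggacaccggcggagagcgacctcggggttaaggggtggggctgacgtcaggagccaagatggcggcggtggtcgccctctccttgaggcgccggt
SDHD: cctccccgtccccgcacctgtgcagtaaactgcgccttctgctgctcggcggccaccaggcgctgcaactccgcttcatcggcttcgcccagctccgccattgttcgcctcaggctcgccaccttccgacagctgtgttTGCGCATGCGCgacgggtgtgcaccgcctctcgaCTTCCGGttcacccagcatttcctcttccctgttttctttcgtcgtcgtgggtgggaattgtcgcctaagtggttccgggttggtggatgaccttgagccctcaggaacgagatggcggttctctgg
COX8A: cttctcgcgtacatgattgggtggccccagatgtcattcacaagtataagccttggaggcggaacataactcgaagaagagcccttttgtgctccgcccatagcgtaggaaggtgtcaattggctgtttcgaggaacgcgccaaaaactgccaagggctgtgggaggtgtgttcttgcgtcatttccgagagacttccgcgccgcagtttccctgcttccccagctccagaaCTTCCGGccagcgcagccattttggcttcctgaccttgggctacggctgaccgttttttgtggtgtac
COX8C: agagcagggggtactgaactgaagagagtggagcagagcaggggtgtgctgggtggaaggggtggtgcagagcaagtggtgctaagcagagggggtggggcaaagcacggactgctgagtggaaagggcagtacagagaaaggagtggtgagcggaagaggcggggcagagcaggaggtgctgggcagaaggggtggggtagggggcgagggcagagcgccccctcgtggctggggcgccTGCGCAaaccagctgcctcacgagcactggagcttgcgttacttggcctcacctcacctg
SDHB held TGCGCA and CCGGAAG once each. SDHD held the full NRF1 core, a TGCGCA that overlaps it and the reverse complement of CCGGAAG. COX8A held only that reverse complement, and COX8C only TGCGCA. A match is a description of letters and says nothing about binding in these cells.

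Cytoplasmic libraries held 30647584 to 68475299 reads, of which 82264 to 379401 were T>C reads, and nuclear libraries held 17851589 to 38658448 reads with 214725 to 1928012 T>C reads. The respiratory chain genes took 2.76% to 3.23% of the cytoplasmic and 1.07% to 1.84% of the nuclear reads, and 406 to 3506 of the T>C reads of a cytoplasmic library. Of the nuclear libraries, replicate 3 of DMSO and of JQ1 had low T>C shares (2.25% and 1.94% of all reads) beside 8.02% and 6.34% in the other DMSO and 6.67% and 5.69% in the other JQ1 libraries. These 2 libraries carry the highest run of library numbers. Summed markers of the luminal, HER2-positive line were high in every cytoplasmic library (85214 to 129551 with drugs and 137110 to 157298 in DMSO), and those of immune, stromal, endothelial and basal cells were low (1286 to 2068 with drugs and 1176 to 2504 in DMSO). Of 15 mitochondrially encoded genes looked for, none is a row of the table analysed here.

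In the cytoplasm, the level of respiratory chain mRNA was close to that of DMSO with every drug. All reads of these genes together made up 3.08% ± 0.07 of the library with JQ1-VHL, 3.04% ± 0.18 with JQ1, 3.09% ± 0.16 with IBET151-VHL and 2.94% ± 0.21 with DMSO (SD, n = 3 each), and 3.02% with IBET151 (n = 2). Of 78 genes with enough reads, 0 passed an adjusted p of 0.05 in any drug against DMSO (limma on log2 of the value + 1, Benjamini-Hochberg over all genes). Over all genes tested, 12.9% passed with JQ1-VHL, 4.82% with JQ1, 15.8% with IBET151-VHL and 2.52% with IBET151. At an unadjusted p under 0.05 the counts were 0, 0, 0 and 2 in the same order (the pair being ATP5F1B and ATP5MC3), and edgeR and DESeq2 on the reads recovered from the values also called 0. The VHL compounds against their parents gave 0 of 78 as well by limma, edgeR and DESeq2 (1 each at an unadjusted p under 0.05 by limma, NDUFV3), beside 4.23% of all genes for JQ1-VHL against JQ1 and 7.91% for IBET151-VHL against IBET151. With the runs of library numbers as a block, 3 of 78 fell with JQ1-VHL, 2 with JQ1 and 2 with IBET151-VHL, beside 26.8%, 12.9% and 28.6% of all genes that passed under that block.

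The median log2 change of the 78 genes was -0.03 with JQ1-VHL, -0.04 with JQ1, 0.03 with IBET151-VHL and 0.10 with IBET151, and that of all genes -0.17, -0.13, -0.15 and 0.00. COX4I1, a regulatory subunit of complex IV, had cytoplasmic values of 18298, 19034 and 21445 with JQ1-VHL, against 20715, 21330 and 19305 with DMSO. These ranges overlapped. NDUFV3, a small accessory subunit of complex I, stood at 2465, 2478 and 2343 with IBET151-VHL and at 2209, 2569 and 2427 with JQ1-VHL, against 2785, 3271 and 2682 with DMSO. Every library of both VHL compounds lay below every DMSO library, but the log2 changes of -0.26 ± 0.13 and -0.28 ± 0.13 (SE) did not pass (adjusted p = 0.273 and 0.245 by limma). Such a gap on the low side was seen for 2 of 78 genes with JQ1-VHL, JQ1 and IBET151-VHL alike, where it was seen for 22.2%, 12.6% and 22.2% of all genes.

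The spread among the DMSO libraries limited some of these comparisons. In cytoplasmic DMSO replicate 1, 8 of 78 genes (ATP5MD, COX6C, NDUFB3, NDUFC1, NDUFC2, SDHB, SDHC and SDHD) had less than 0.5 times the value of both other DMSO libraries, while replicates 2 and 3 had 0 such genes. How many of all genes were as low there was not counted. Summed over all genes, that library stood at 2.76e+07, between 3.40e+07 in replicate 2 and 2.63e+07 in replicate 3. NDUFC2, a membrane subunit of complex I, was at 410.6 in that library and at 4517 and 4320 in the other DMSO libraries, beside 3900 to 5494 with the drugs. Its log2 change was 1.16 ± 0.62 (SE) with JQ1-VHL and 1.12 ± 0.62 with JQ1 (adjusted p = 0.302 and 0.438 by limma). Of complex II, SDHB, the iron-sulfur subunit, was at 903, 3402 and 2776 with DMSO, SDHC, a membrane anchor, at 1245, 5391 and 4712, and SDHD, the other anchor, at 207, 1203 and 994. In each of them replicate 1 is far below the other DMSO libraries, and the median log2 difference of the 4 complex II genes was 0.57 with JQ1-VHL, 0.47 with JQ1, 0.59 with IBET151-VHL and 0.76 with IBET151, with 0 of 4 passing. Without that library the log2 difference of NDUFC2 was 0.02 with JQ1-VHL and -0.02 with JQ1, and that of SDHB was -0.06 with JQ1-VHL, -0.11 with JQ1, -0.05 with IBET151-VHL and 0.07 with IBET151, against 0.53, 0.47, 0.54 and 0.66 with all libraries.

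In contrast to all reads, T>C reads were lower with every drug. Summed over the respiratory chain genes, the cytoplasmic T>C share was 0.0578%, 0.0683% and 0.0664% with JQ1-VHL, against 0.152%, 0.161% and 0.137% with JQ1. It was 0.0411%, 0.0405% and 0.0462% with IBET151-VHL, against 0.165% and 0.178% with IBET151, and 0.267%, 0.244% and 0.217% with DMSO. No library of any drug overlapped DMSO, and each VHL compound lay below its parent in every library. The means were 0.0642% ± 0.00559 with JQ1-VHL, 0.150% ± 0.0119 with JQ1, 0.0426% ± 0.00316 with IBET151-VHL and 0.243% ± 0.0249 with DMSO (SD, n = 3), and 0.172% with IBET151 (n = 2). All other genes together gave 0.295%, 0.556%, 0.255% and 0.799%, and 0.630% with IBET151.

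**Figure D1:**
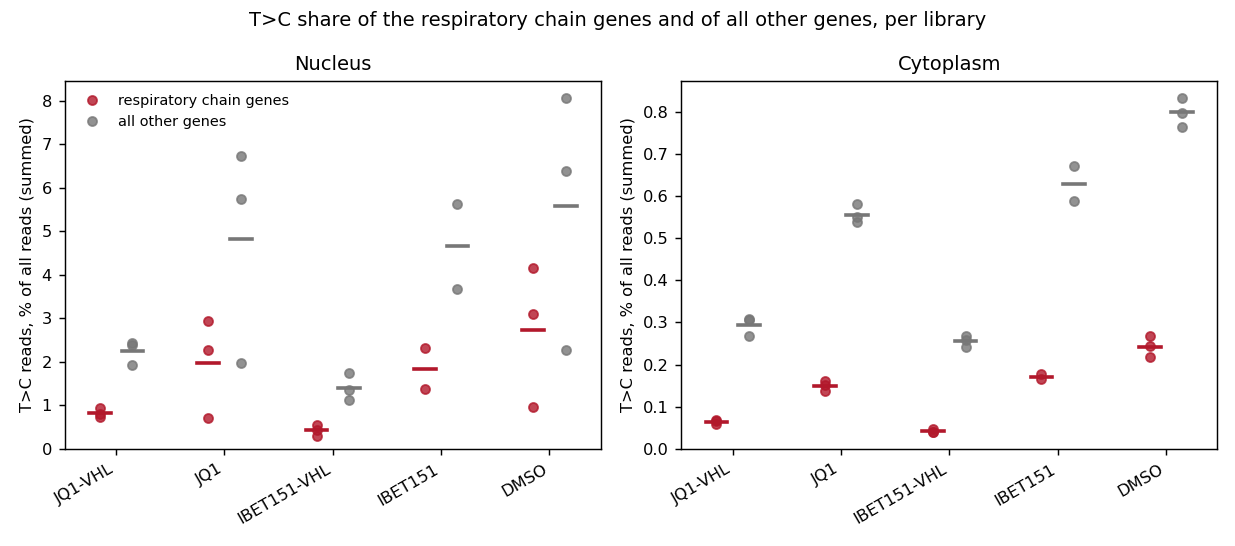
T>C reads as a percentage of all reads, summed over the respiratory chain genes (red) and over all other genes (grey), per library in the nucleus (left) and cytoplasm (right); points are libraries and lines are group means. In the cytoplasm every library of the drugs lies below the DMSO libraries, and the red points lie below the grey ones in each group.

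Per gene, 63 of the 83 had enough T>C reads in the cytoplasm to be tested. T>C reads fell for 59 of 63 with JQ1-VHL, beside 82.8% of all genes, and for 61 of 63 with IBET151-VHL, beside 88.3%. They fell for 13 of 63 with JQ1, beside 20.1%, and for 2 of 63 with IBET151, beside 6.76% (limma, adjusted p under 0.05). None rose. Of the 63, 2 genes reached the minimum in no drug library. They entered through DMSO libraries alone and had to be lower with drugs, so their part in any count of the 63 is a description only. NDUFB2 reached the minimum in no DMSO library. Every library lay below every DMSO library for 58 of 63 genes with JQ1-VHL, 28 with JQ1, 59 with IBET151-VHL and 27 with IBET151, beside 77.4%, 41.0%, 84.4% and 34.5% of all genes. The median log2 change was -2.60 with JQ1-VHL, -1.02 with JQ1, -3.14 with IBET151-VHL and -0.51 with IBET151, close to the medians of all genes tested (-2.42, -0.97, -2.89 and -0.60). Against the parent, 41 of 63 fell with JQ1-VHL, beside 46.5% of all genes, and 51 of 63 with IBET151-VHL, beside 69.1%. Leaving out JQ1-VHL replicate 1 lowered that count against JQ1 to 26. The 2 genes with IBET151 became 0 or 1 whichever of its own or the DMSO libraries was left out, and the 13 with JQ1 became 2 to 8 (3, 2 and 8 without DMSO replicate 1, 2 or 3, and 5, 7 and 4 without JQ1 replicate 1, 2 or 3). Under median-ratio scaling, which sets the median change of all genes to about 0, 9 genes passed with JQ1-VHL (8 lower, ATP5MC3 higher), beside 18.9% of all genes lower and 2.62% higher, and 19 with IBET151-VHL (16 lower, 3 higher), beside 36.8% and 5.37%. With JQ1 and IBET151 it gave 0, beside 1.63% and 0.635% of all genes lower.

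**Figure D2:**
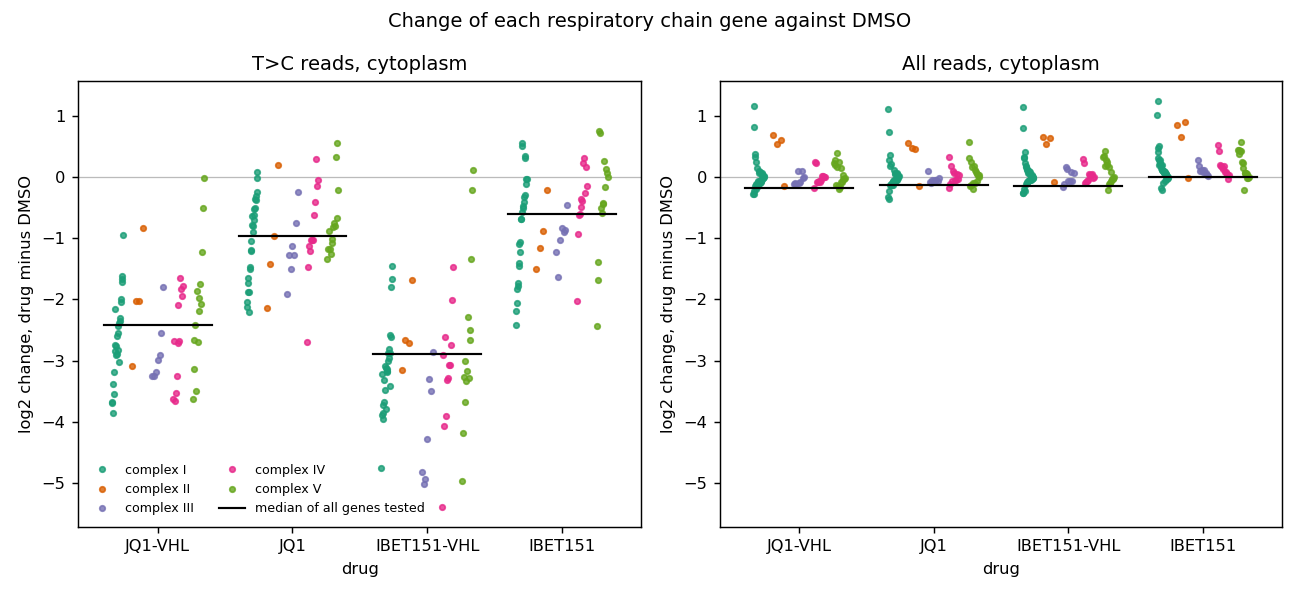
log2 change of each respiratory chain gene against DMSO in the cytoplasm for T>C reads (left) and all reads (right), by drug; each point is a gene coloured by complex, and the black line is the median of all genes tested. The T>C reads of most genes lie between -1 and -5 with the VHL compounds, while all reads stay near 0.

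Complex I oxidises NADH. With IBET151-VHL the T>C reads of 26 of its 26 tested genes fell (median log2 -3.15), and with JQ1-VHL those of 25 (median -2.68). The exception was NDUFA7, an accessory subunit (-0.96 with JQ1-VHL, adjusted p = 0.172 by limma). NDUFAB1, the mitochondrial acyl carrier protein, had T>C values of 0.670, 4.53 and 5.94 with JQ1-VHL, against 20.4, 21.4 and 7.85 with JQ1. With IBET151-VHL it had 0.673, 0.864 and 1.19, against 18.1 and 17.3 with IBET151, and it had 57.2, 49.0 and 45.0 with DMSO. The VHL compounds, their parents and DMSO did not overlap for this gene, and the log2 change was -4.75 ± 0.56 with IBET151-VHL and -3.68 ± 0.56 with JQ1-VHL (SE; adjusted p = 2.56e-08 and 3.18e-06 by limma). Past the threshold with JQ1 were, among others, NDUFS3, NDUFB10, NDUFB1, NDUFA9 and NDUFC1. NDUFS3 overlaps PTPMT1 and NDUFC1 overlaps MGARP on the same strand, so their values are uncertain. NDUFS6, a zinc-binding subunit, passed with IBET151 at 0.951 and 2.73 against 7.25, 25.3 and 12.9 with DMSO (-2.42 ± 0.70, adjusted p = 0.0325 by limma), which rests on 4 reads against 64.

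Complex II oxidises succinate and is the only complex with all subunits from nuclear genes. T>C reads fell for 4 of its 4 genes with IBET151-VHL (median log2 -2.68) and for 3 of 4 with JQ1-VHL, where SDHA, the flavoprotein, did not pass (-0.83, adjusted p = 0.279 by limma). SDHB had 1.70, 7.94 and 0 with JQ1, against 9.66, 17.7 and 9.31 with DMSO, and passed with JQ1 (-2.14 ± 0.69, adjusted p = 0.0289 by limma). The 3 JQ1 libraries lay below all DMSO libraries. With JQ1-VHL and IBET151-VHL, 2 reads each were left over 3 libraries, and the log2 changes were -3.09 ± 0.69 and -3.14 ± 0.69 (adjusted p = 2.53e-04 and 1.49e-04 by limma). SDHD had the highest T>C share of the 63 genes in cytoplasmic DMSO, 2.26% ± 1.21 (3.50%, 2.18% and 1.09%, SD, n = 3), from 61 T>C reads of 3603 reads. Its highest share is that of replicate 1, the library in which all reads of SDHD were at 207 beside 1203 and 994. UQCRFS1 (0.923% ± 0.408) and NDUFS4 (0.863% ± 0.151) followed, and the lowest SDHD library, at 1.09%, lay below the highest of UQCRFS1, at 1.39%. The lowest shares of the 63 were those of NDUFB2 (0.0322% ± 0.00659), NDUFB8 (0.0475% ± 0.0355) and ATP5ME (0.0485% ± 0.0278), and the median of the 63 was 0.273%. Since the 63 had to reach the minimum of T>C reads, genes with lower shares were left out of this ranking. Of the genes not tested, NDUFA11 stood at 0.00442%, NDUFA13 at 0.00540% and ATP5F1D at 0. Over 75 genes chosen by all reads instead, the median was 0.231%. NDUFB2 overlaps ADCK2 on the same strand, so its value is uncertain.

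Complex III passes electrons from ubiquinol to cytochrome c. T>C reads fell for 7 of its 7 tested genes with both VHL compounds, with medians of -2.99 with JQ1-VHL and -4.28 with IBET151-VHL. UQCRB, a subunit close to the ubiquinone site, had T>C values of 7.38, 22.6 and 17.8 with JQ1-VHL, against 77.5, 52.4 and 54.6 with JQ1. It had 4.71, 2.59 and 5.97 with IBET151-VHL, against 53.3 and 72.9 with IBET151, and 188, 159 and 107 with DMSO. The 4 drug groups and DMSO fell into 3 steps without overlap, with the parents between the VHL compounds and DMSO. The log2 change was -4.83 ± 0.44 with IBET151-VHL, -3.26 ± 0.44 with JQ1-VHL and -1.27 ± 0.44 with JQ1 (SE; adjusted p = 3.63e-10, 8.04e-07 and 0.0412 by limma). All reads of UQCRB, in contrast, overlapped in range, for example 39243 to 44830 with IBET151-VHL against 40262 to 51276 with DMSO. UQCR10, a small membrane subunit, had 2.02, 0 and 2.98 with IBET151-VHL against 39.0 and 41.9 with IBET151 and 77.3, 75.1 and 67.3 with DMSO (-5.02 ± 0.53 against DMSO, adjusted p = 5.31e-09 by limma). UQCRFS1, the Rieske iron-sulfur protein, changed by -4.93 with IBET151-VHL, and UQCRC2, a core protein, by -1.91 with JQ1 (adjusted p = 3.06e-08 and 0.0321 by limma).

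Complex IV reduces oxygen. T>C reads fell for 12 of its 12 tested genes with both VHL compounds (median log2 -2.68 with JQ1-VHL and -3.07 with IBET151-VHL). COX7C, a small membrane subunit, had 2.01, 2.72 and 8.17 with JQ1-VHL, against 20.4, 26.2 and 14.6 with JQ1. It had 0.673, 0 and 0.597 with IBET151-VHL, against 24.7 and 34.6 with IBET151, and 74.1, 55.7 and 44.5 with DMSO. The groups kept the same order as for UQCRB without overlap between VHL compound, parent and DMSO, and the log2 change was -5.38 ± 0.52 with IBET151-VHL (adjusted p = 9.78e-10 by limma). COX4I1 had the smallest p of the group with JQ1, at 5.11, 1.59 and 1.87 against 25.0, 24.5 and 17.6 with DMSO (-2.69 ± 0.62, adjusted p = 0.00401 by limma). NDUFA4, formerly assigned to complex I and now to complex IV, overlapped DMSO with both parents (46.0, 72.2 and 53.8 with JQ1, 59.9 and 88.4 with IBET151, 57.2, 60.8 and 69.3 with DMSO), and the log2 changes of -0.14 with JQ1 and 0.22 with IBET151 did not pass (adjusted p = 0.815 and 0.828 by limma). With the VHL compounds it fell clear of these ranges (7.38, 6.34 and 14.9 with JQ1-VHL, 7.40, 6.05 and 8.95 with IBET151-VHL), by 2.67 and 2.91 on the log2 scale (adjusted p = 5.62e-06 and 7.40e-07 by limma). COX5A had 0 T>C reads with IBET151-VHL against 68 with DMSO. Set against a floor of 3 reads over the group, it was at least 24.6-fold lower. The same bound was 18.7-fold for NDUFS4, 11.3-fold for NDUFA1 and 10.7-fold for UQCRC2.

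Complex V makes ATP. T>C reads fell for 12 of its 14 tested genes with both VHL compounds (median log2 -2.13 with JQ1-VHL and -3.09 with IBET151-VHL), and the exceptions were ATP5MC3 and ATP5MF in each case. ATP5MC3 encodes subunit c of the rotating ring, together with ATP5MC1 and ATP5MC2, and ATP5MF a small membrane subunit. ATP5MC3 had T>C values of 237, 206 and 273 with JQ1-VHL, against 325, 305 and 283 with JQ1. It had 179, 200 and 249 with IBET151-VHL, against 353 and 468 with IBET151, and 134, 294 and 354 with DMSO. All drug groups overlapped the DMSO range or, with IBET151, its upper end, with DMSO replicate 1 the lowest library of all. For both VHL compounds the overlap rests on that library. Each of their libraries lay below DMSO replicates 2 and 3, at 294 and 354. A fit of ATP5MC3 without DMSO replicate 1 is not given here. The log2 change was -0.02 with JQ1-VHL and -0.22 with IBET151-VHL (adjusted p = 0.940 and 0.493 by limma), and -0.97 for IBET151-VHL against IBET151 (adjusted p = 0.0133). ATP5MF had 26.1, 3.62 and 29.7 with JQ1-VHL, 16.8, 28.5 and 25.1 with IBET151-VHL and 20.9, 18.6 and 24.3 with DMSO, again within reach of each other. The other subunit c genes did fall: ATP5MC1 and ATP5MC2 were among the 12. How T>C reads were called, and whether variant positions were left out, is not given in the sources used here, so the part of the T>C reads of ATP5MC3 and ATP5MF that is new RNA is not known.

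As a share of its own reads, ATP5MC3 stood at 0.595% ± 0.083 with JQ1-VHL, 0.779% ± 0.039 with JQ1 and 0.512% ± 0.049 with IBET151-VHL (SD, n = 3). It stood at 0.876% with IBET151 and at 0.695% ± 0.227 with DMSO (0.474%, 0.681% and 0.929%, SD, n = 3). It thereby made up 914 of the 1613 cytoplasmic T>C reads of all respiratory chain genes with IBET151-VHL (56.7%) and 44.5% with JQ1-VHL, against 13.5% with DMSO (1199 of 8852). Without ATP5MC3 and ATP5MF, an omission chosen after these values were seen, the summed cytoplasmic share was 0.0356% ± 0.00982 with JQ1-VHL, 0.116% ± 0.0124 with JQ1, 0.0167% ± 0.00201 with IBET151-VHL and 0.220% ± 0.0383 with DMSO (SD, n = 3), and 0.131% with IBET151. Complex V alone gave 0.103% with IBET151-VHL and 0.289% with DMSO, or 0.0201% and 0.213% without these genes, beside 0.0131% and 0.191% for complex I, 0.00860% and 0.246% for complex III and 0.0256% and 0.249% for complex IV. Among 62 genes with at least 20 DMSO T>C reads, the share kept more than 0.5 times its DMSO value for 3 with JQ1-VHL (SDHA, ATP5MC3 and ATP5MF), 27 with JQ1, 2 with IBET151-VHL (ATP5MC3 and ATP5MF) and 40 with IBET151. The median ratio was 0.141, 0.446, 0.0643 and 0.597 in that order. The cut used DMSO reads alone, which leans ratios to DMSO downwards, so these counts and medians are a description only. Genes below the cut lay on both sides of 0.5 with JQ1-VHL. For example, UQCRC1 was at 0.951 and CYC1 at 0, from 8 and 10 DMSO T>C reads. These ratios were not taken over all genes, so how common such a kept share is among other genes was not tested.

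**Figure D3:**
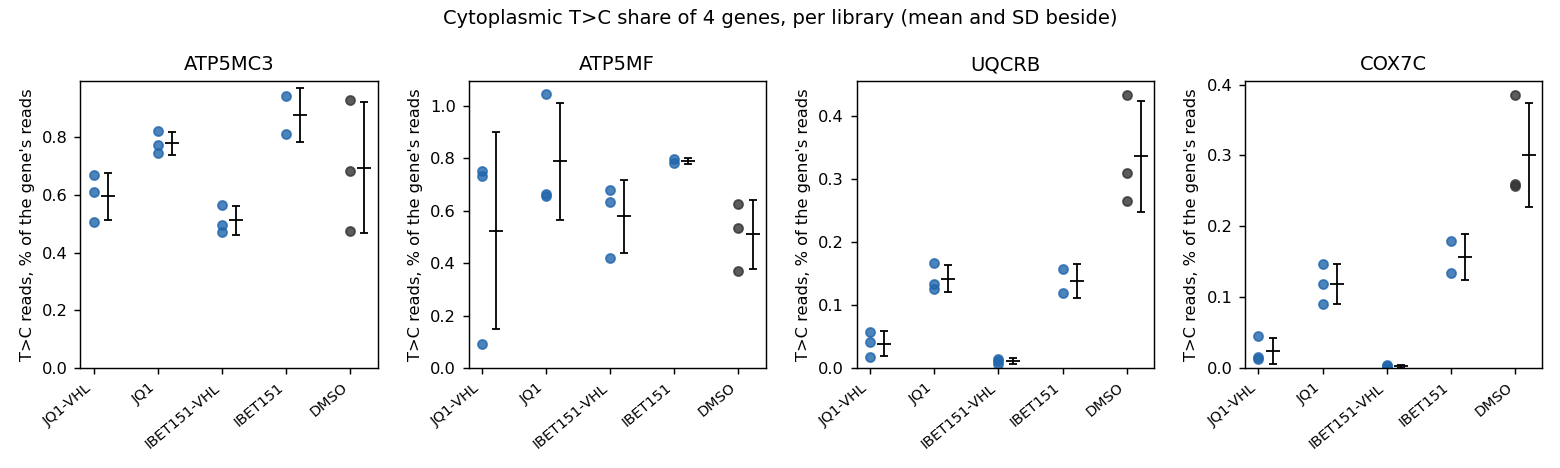
Cytoplasmic T>C share of ATP5MC3, ATP5MF, UQCRB and COX7C in every library by treatment, with the mean and SD beside the points. UQCRB and COX7C fall in steps below DMSO with the parents and the VHL compounds. ATP5MC3 with IBET151-VHL keeps a mean of 0.512% beside 0.695% in DMSO, whose libraries spread from 0.474% to 0.929%.

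ATP5MC3 had nuclear T>C values of 92.4, 272 and 293 with IBET151-VHL, against 265, 943 and 642 with DMSO, and fell (log2 -1.48, adjusted p = 0.0347 by limma), its share being 1.49% ± 0.40 and 3.54% ± 1.77 (SD, n = 3). With JQ1-VHL its change of -1.06 did not pass (adjusted p = 0.148 by limma). ATP5MF had 12.4, 58.8 and 35.8 with IBET151-VHL, against 30.6, 83.1 and 84.3 with DMSO, with overlapping ranges, and was the 1 gene of 78 that did not pass with that compound (-0.98, adjusted p = 0.220 by limma). ATP5MF shares its strand and locus with PTCD1, so its value is uncertain.

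Among the nuclear T>C reads, 78 genes were tested. They fell for 77 of 78 with IBET151-VHL, beside 83.9% of all genes, and for 46 of 78 with JQ1-VHL, beside 60.5%. The count with JQ1-VHL was 12 without DMSO replicate 2 and 19 without JQ1-VHL replicate 1. With JQ1, 0 of 78 fell by limma (2.29% of all genes, 5 respiratory chain genes at an unadjusted p under 0.05), and with IBET151 likewise 0 (0.987%, 0 at an unadjusted p under 0.05). edgeR and DESeq2 also called 0 with both. With the replicate number as a block, which the same-number correlations allow for JQ1 in these reads, 1 gene fell with JQ1, beside 4.07% of all genes. With the runs of library numbers as a block, 70 fell with JQ1-VHL, 7 with JQ1 and 3 with IBET151, beside 83.0%, 10.8% and 5.09%. Median log2 changes were -1.71 with JQ1-VHL, -0.72 with JQ1, -3.32 with IBET151-VHL and -0.08 with IBET151, beside -1.92, -0.67, -3.12 and -0.07 over all genes. Against the parents, 76 of 78 fell with IBET151-VHL, beside 81.4%, and 4 of 78 with JQ1-VHL, beside 13.0%. That last count ranged from 0 without JQ1-VHL replicate 1, JQ1 replicate 2 or JQ1 replicate 3 to 9 without JQ1-VHL replicate 2, and was 53 with the runs as a block, beside 61.3% of all genes.

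CYC1, cytochrome c1 of complex III, which had too few T>C reads in the cytoplasm, had nuclear T>C values of 1.55, 20.8 and 2.24 with IBET151-VHL, against 165 and 131 with IBET151 and 151, 302 and 82.3 with DMSO (-4.79 ± 0.76 against DMSO, adjusted p = 3.62e-09 by limma). Its IBET151-VHL libraries were all below those of DMSO. NDUFA1, a membrane-anchored subunit of complex I, had 2.01, 0 and 11.1 with JQ1-VHL, against 13.0, 31.5 and 25.7 with JQ1 and 34.3, 115 and 68.9 with DMSO, the lowest p with JQ1-VHL (-4.31 ± 0.89 against DMSO, adjusted p = 3.55e-05 by limma). ATP5F1A, the alpha subunit of ATP synthase, changed by -1.23 with JQ1-VHL (adjusted p = 0.0963) and -1.87 with IBET151-VHL (adjusted p = 0.00778 by limma). Under median-ratio scaling its change with IBET151-VHL turned to 1.12, above the median gene (adjusted p = 0.00245 by limma).

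The T>C share of each gene was also fitted by itself, since the spike-in scaling cancels in it. In the cytoplasm it fell for 56 of 63 genes with JQ1-VHL, beside 73.2% of all genes, and for 59 of 63 with IBET151-VHL, beside 82.9%. With JQ1 and IBET151 it fell for 0 of 63 each, beside 3.14% and 0.714% (limma, adjusted p under 0.05), with 13 and 9 at an unadjusted p under 0.05. Those unadjusted counts have no share of all genes beside them and are not read as a result about these genes. Without JQ1 replicate 2, NDUFS3 and SDHB passed with JQ1. Against the parents it fell for 29 with JQ1-VHL, beside 33.4%, and for 44 with IBET151-VHL, beside 62.9%. In the nucleus it fell for 6 of 78 with JQ1-VHL, beside 16.1%, and for 68 of 78 with IBET151-VHL, beside 69.8%. With the parents it fell for 0 by limma (0 at an unadjusted p under 0.05), beside 0.0581% with JQ1 and 0.0332% with IBET151. Summed over the respiratory chain genes, the nuclear share was 2.94%, 2.26% and 0.709% with JQ1, against 4.15%, 3.09% and 0.969% with DMSO. Each JQ1 library was below the DMSO library of the same number, but the ranges overlapped. All other genes together had the same order, at 6.72%, 5.74% and 1.97% with JQ1 against 8.06%, 6.39% and 2.28% with DMSO. The lower share is therefore not particular to the respiratory chain genes. With the replicate number as a block the count with JQ1 was again 0, beside 0.149%. Against the parents it fell in the nucleus for 0 with JQ1-VHL (14 at an unadjusted p under 0.05), beside 1.13%, and for 54 with IBET151-VHL, beside 58.6%. The 6 were NDUFA8, NDUFA1, COX6C, NDUFB9, NDUFB10 and ATP5PB. Nuclear DMSO replicate 3, whose T>C share was low, decided this count: 47 genes passed without it, 0 without DMSO replicate 1, 1 without DMSO replicate 2, and 2, 3 and 2 without JQ1-VHL replicate 1, 2 and 3. DMSO and JQ1-VHL replicate 3 come from different runs of library numbers, and with the runs as a block 69 genes fell with JQ1-VHL, beside 69.7% of all genes.

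All reads in the nucleus varied widely in level between replicates. In DMSO replicate 1, 74 of 78 respiratory chain genes had less than 0.5 times the value of both other DMSO libraries. The whole library was low: its values summed over all genes to 2.23e+07, against 4.85e+07 and 6.79e+07 in the other DMSO libraries. Of 79 genes tested, 1 passed with JQ1-VHL (1.97% of all genes) and with IBET151-VHL (4.55%), and 0 with JQ1 (0.0694%) and IBET151 (0.0971%), with 1 gene each at an unadjusted p under 0.05. The VHL compounds against their parents gave 0 of 79 by limma, edgeR and DESeq2 (0 at an unadjusted p under 0.05), beside 0.298% for JQ1-VHL and 0.541% for IBET151-VHL. Against DMSO that gene was COX8C in each case, a complex IV isoform known from testis. It had 8, 8 and 5 reads with JQ1-VHL, 5, 7 and 3 with JQ1, 3, 11 and 9 with IBET151-VHL, 9 and 4 with IBET151 and 0, 1 and 0 with DMSO. Every drug library had more reads than any DMSO library. COX8C reached the minimum for testing through drug libraries alone and had to be higher there, so its reads are given as a description only. The other 78 genes gave 0 with every drug. In the cytoplasm COX8C had 14 and 9 reads with IBET151 and 0 to 6 in every other library, and was not tested.

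Its widespread counterpart COX8A passed in none of these fits of all reads. The other isoforms of restricted tissues were near 0 as well. COX6A2, known from heart and muscle, had 0 reads in every cytoplasmic library and 3, 2 and 4 reads in the nucleus with JQ1-VHL, against 0 with DMSO, and was not tested. COX6B2, NDUFA4L2 and NDUFA2 also had too few reads, and COX4I2, COX7A1 and COX7B2 are not rows of the table analysed here. With the replicate number as a block, which the same-number correlations allow for JQ1-VHL and IBET151-VHL in these reads, 2 genes passed with JQ1-VHL (COX8C higher, NDUFS8 lower) and 11 with IBET151-VHL (COX8C higher and 10 lower, among them NDUFS1, NDUFS4, SDHB and SDHD), beside 26.1% and 46.0% of all genes. With the runs of library numbers as a block 6 passed with JQ1-VHL, 8 with JQ1, 15 with IBET151-VHL and 5 with IBET151, beside 41.0%, 35.1%, 59.3% and 22.3%. All of these counts of respiratory chain genes are below the share of all genes. The median log2 change in the nucleus was -0.25 with JQ1-VHL, -0.24 with JQ1, -0.40 with IBET151-VHL and 0.34 with IBET151, beside -0.48, -0.43, -0.71 and 0.05 over all genes. The nuclear minus cytoplasmic difference of the drug effect, tested in 1 fit of all 28 libraries, passed for 0 of 79 genes with each of the 4 drugs by limma (1 at an unadjusted p under 0.05 with JQ1-VHL, 2 with IBET151-VHL and 0 with the parents). Over all 14458 genes 0.00692% passed with IBET151-VHL and 0.0% with each other drug.

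In DMSO, the nuclear level against the cytoplasmic level was lower for most of these genes than for most genes. Over all 14458 genes the median log2 difference, nucleus minus cytoplasm, was 1.26, and 14.1% of genes were below 0. Of the 79 respiratory chain genes 60 were below 0, with a median of -0.62, which was 0.11 without nuclear DMSO replicate 1. Since both scales are per mass of RNA, this compares places within each fraction and not amounts per cell. Of the 79, 4 were higher in the nucleus and 7 lower (limma, adjusted p under 0.05), beside 47.9% and 0.539% of all genes.

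COX6A1, the widespread isoform of a complex IV subunit, had 8626, 19529 and 26922 in the nucleus, against 3367, 3495 and 3116 in the cytoplasm (2.32 ± 0.54, adjusted p = 4.65e-04 by limma). SDHA had 5384, 12720 and 15265, against 2690, 2324 and 1699 (2.21 ± 0.55, adjusted p = 8.86e-04 by limma). For both, the fractions did not overlap, and NDUFB9 (1.96) and SDHD (1.61) also passed. On the other side, UQCR10 had 1307, 4320 and 7199 in the nucleus, against 10908, 14035 and 13014 in the cytoplasm (-1.87 ± 0.60, adjusted p = 0.00933 by limma), without overlap. ATP5ME (-1.73), UQCRQ (-1.63), NDUFB2 (-1.52), UQCRH (-1.51), NDUFS5 (-1.48) and ATP5MD (-1.38) were the other genes that passed as lower. By complex the medians were -0.57 for complex I, 0.90 for complex II, -1.33 for complex III, -0.62 for complex IV and -0.70 for complex V. Without cytoplasmic DMSO replicate 1, in which SDHB, SDHC and SDHD were low, the complex II median was 0.20 and SDHD, at 0.82, no longer passed, as it did not without nuclear replicate 2 or 3. Nuclear DMSO replicate 1, in which 74 of these genes and the library as a whole were low, decided the direction of the median of the 79 genes and of complexes I and IV. Without it these medians were 0.11, beside 1.57 over all genes, 0.16 and 0.04. Those of complexes III and V stayed below 0, at -0.72 and -0.19, and that of complex II was 1.44. In that fit 8 genes passed as higher and 0 as lower. Same-numbered DMSO fractions deviated together (r = 0.177, 0.105 and 0.343 across genes), and with the replicate number as a block 23 genes passed, 6 higher and 17 lower, beside 55.3% and 1.74% of all genes. Without nuclear DMSO replicate 3 there were 21 (3 higher, 18 lower), without cytoplasmic replicate 1 there were 7, and without nuclear replicate 2 or cytoplasmic replicate 2 or 3 there were 6. Median-ratio scaling moves the fractions against each other and gave 70 (3 higher, 67 lower), beside 28.7% and 26.1% of all genes.

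**Figure D4:**
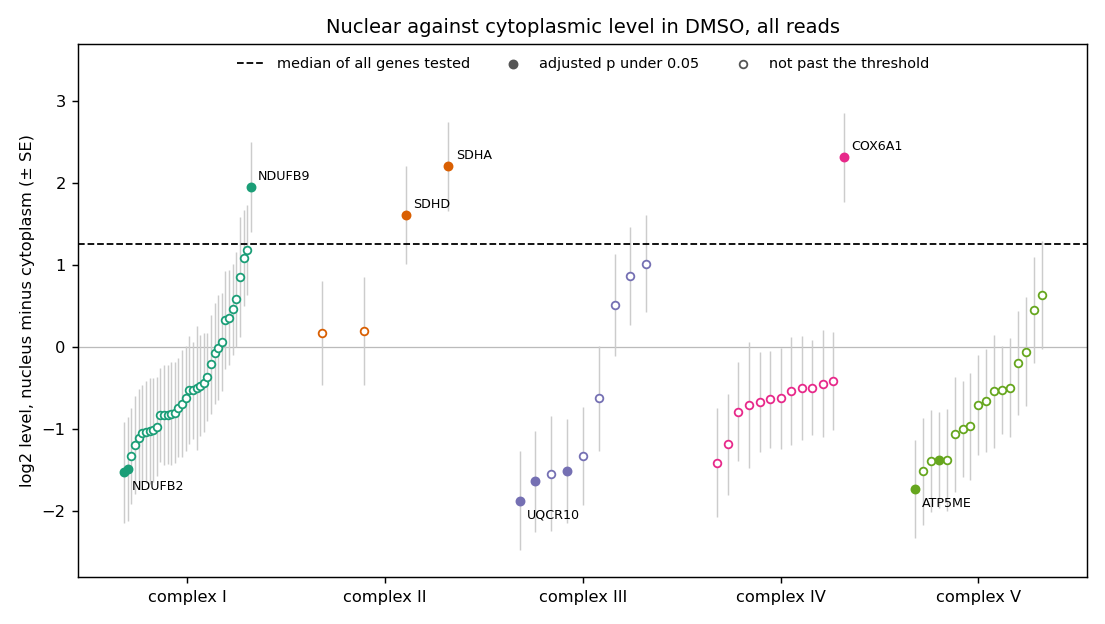
log2 level in the nucleus minus the cytoplasm in DMSO for each respiratory chain gene (± SE), by complex, with filled points for adjusted p under 0.05 and a dashed line at the median of all genes tested, 1.26. Most genes lie below 0 with all libraries, though their median was 0.11 without nuclear DMSO replicate 1, and COX6A1, SDHA, NDUFB9 and SDHD lie above the line.

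The genes around the respiratory chain were tested in the same fits. Of 51 assembly factors, which build the complexes without staying in them, all reads fell for 4 with JQ1-VHL, 1 with JQ1, 5 with IBET151-VHL and 0 with IBET151, beside 12.5%, 4.0%, 15.4% and 1.62% of all genes that fell. Each count is a lower share of the list than that of all genes. COA7, an assembly factor of complex IV, had 74.7, 120 and 109 with IBET151-VHL and 107, 143 and 117 with JQ1-VHL, against 300.3, 426 and 408 with DMSO (-1.90 ± 0.23 and -1.61 ± 0.23, adjusted p = 5.02e-05 and 3.58e-04 by limma). SDHAF1, an assembly factor of complex II, had 153, 214 and 148 with IBET151-VHL, against 522, 773 and 552 with DMSO (-1.83 ± 0.21, adjusted p = 2.92e-05 by limma). For both, every VHL library was below every DMSO library, and COX19, SDHAF2 and, with IBET151-VHL alone, COX10 passed too. Of 22 regulators of mitochondrial biogenesis, PPRC1, a PGC-1 related coactivator, and TWNK, the mitochondrial DNA helicase, fell with JQ1-VHL, JQ1 and IBET151-VHL, and 0 with IBET151. PPRC1 had 180, 184 and 162 with IBET151-VHL, 234, 265 and 253 with JQ1-VHL and 373, 317 and 292 with JQ1, against 505, 747 and 611 with DMSO. Its levels fell in steps without overlap between these groups. Of 17 electron carriers and feeding enzymes and 13 enzymes of the tricarboxylic acid cycle, 0 passed with any drug.

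In T>C reads most genes of these lists fell with the VHL compounds, as most of all genes did. In the cytoplasm they fell with JQ1-VHL and IBET151-VHL for 31 and 31 of 33 assembly factors, 9 and 9 of 10 carriers, 8 and 8 of 9 cycle enzymes and 12 and 12 of 14 regulators, beside 82.8% and 88.3% of all genes. With JQ1 and IBET151 they fell for 8 and 1, 1 and 0, 0 and 1, and 3 and 0, beside 20.1% and 6.76%. In the nucleus they fell with IBET151-VHL for 50 of 51 assembly factors, 15 of 17 carriers, 11 of 13 cycle enzymes and 20 of 22 regulators, beside 83.9%. The difference of a list from these shares was not tested. The T>C share of a gene depends in part on how many T bases its sequenced end holds. Over the last 250 bases of the transcripts the median T content was 29.2% for the respiratory chain genes and 31.2% for all genes, and their median DMSO share was 0.231% against 0.550% in the cytoplasm and 2.86% against 6.11% in the nucleus. Across genes, which are not independent, T content and share had a Spearman correlation of 0.411 over 75 respiratory chain genes and 0.421 over 6570 genes in the cytoplasm, all from the same DMSO libraries.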

How the data were processed

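Poly(A) 3′-end libraries (Lexogen QuantSeq) of nuclear and cytoplasmic RNA were sequenced, per the labels' protocols, and T>C reads counted by the authors in a way not given in the sources used here. The submitters' processing notes name Trimmomatic 0.39, HISAT2, HTSeq, DESeq2 and GRCh37. The deposited values of both tables are signal values, scaled by the authors to ERCC spike-in RNA per the labels. Each is a whole multiple of what 1 read is worth in its library (100% of values within 0.001 of a whole read), so reads were recovered from the 28 columns of each table. Library depth is given with the results, and intervals and floors cover counting error only.

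A gene was fitted if 2 libraries or more reached 10 in the table of all reads, or 5 in that of T>C reads, using limma 3.58.1 on log2(value + 1), 14 libraries per fraction or all 28 for the nucleus against the cytoplasm. Fold changes on this scale understate those of low genes. The T>C share was fitted as log2((T>C reads + 0.5)/(all reads + 1)). Adjusted p is Benjamini-Hochberg over all genes, with a threshold of 0.05. Counts at an unadjusted p under 0.05 were taken for the respiratory chain genes only. edgeR 4.0.16 and DESeq2 1.42.0 on the recovered reads, other pseudocounts, filters and scaling, blocks and left-out libraries were alternatives. The fits were also run on simulated counts that held no replicate or run effect. That run therefore says nothing about the spread between replicates and runs seen here. Same-numbered libraries deviated together (every r above 0.1) in all reads for JQ1-VHL, JQ1 and IBET151-VHL against DMSO and JQ1-VHL against JQ1 (lowest r 0.203 in the cytoplasm and 0.201 in the nucleus), in DMSO between fractions, and in nuclear T>C reads for JQ1 against DMSO. What the numbers mean is not given.

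The members and gene lists were chosen with earlier results of these data known. Named were the genes with the smallest p per comparison, fixed genes of each complex, the tissue-restricted isoforms and the extremes of DMSO share and nuclear against cytoplasmic level. ATP5MC3, ATP5MF and other genes beyond that rule were named after their values were seen. Of the files, 479 genes of all reads and 245 of T>C reads carry no symbol and could not be searched by it. Of the genes that the rule names, 1 is not reported here.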

Additional observations from a re-analysis of the deposited data

How the results depend on the processing

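The counts in this section are of respiratory chain genes and show how the calls move with the setting. Where no share of all genes stands beside a count, it is not read as a result about these genes. Median-ratio scaling, which centres all genes near 0, gave for all reads in the cytoplasm 2 genes with JQ1-VHL and 5 with IBET151-VHL, all higher. For all reads in the nucleus it gave 3 with JQ1-VHL, 4 with IBET151-VHL and 1 with IBET151, all higher. For T>C reads in the cytoplasm it gave 9 with JQ1-VHL, 0 with JQ1, 19 with IBET151-VHL, 0 with IBET151, and 1 and 6 for JQ1-VHL and IBET151-VHL against their parents. In the nucleus it gave 3 with JQ1-VHL (2 higher), 30 with IBET151-VHL (9 higher), and 1 and 17 against the parents. Nucleus against cytoplasm gave 70. It reversed UQCRC1 (0.037) and SDHB (0.030) with JQ1-VHL, ATP5F1A with IBET151-VHL against DMSO (1.12) and IBET151 (0.54), all in nuclear T>C reads, and SDHB in nucleus against cytoplasm (-0.97). By construction it removes a change shared by most genes.

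For cytoplasmic T>C reads with JQ1 and IBET151, a pseudocount of 0.5 gave 2 and 0 genes, a pseudocount of 5 gave 25 and 13, no filter gave 6 and 1, and edgeR gave 6 and 0, with 0 by DESeq2 for IBET151. A filter at 5 times the minimum, which tests fewer genes, gave 5 with JQ1, 22 with JQ1-VHL, 0 with IBET151, 22 with IBET151-VHL, 19 and 23 against the parents, and 22 and 22 for the T>C share with the VHL compounds. COX8C was lost with JQ1-VHL at a pseudocount of 5 (0 genes), under edgeR (0) and DESeq2 (0), and with both VHL compounds under that filter (0 and 0). The nuclear share with JQ1-VHL gave 1 at an offset of 0.1 and 10 under that filter.

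The replicate block gave, for all nuclear reads, 2 with JQ1-VHL and 11 with IBET151-VHL, beside 26.1% and 46.0% of all genes. It gave 10 higher with IBET151 and 74 lower for IBET151-VHL against IBET151. For nuclear T>C reads it gave 1 with JQ1, beside 4.07%, and 11 for JQ1-VHL against JQ1. The nuclear share gave 35 with JQ1-VHL, and nucleus against cytoplasm gave 23. For the 10, the 74, the 35 and the 11 of JQ1-VHL against JQ1 no share of all genes is given, so they are not a result about these genes. IBET151 has only 2 same-numbered pairs, whose deviations in all nuclear reads had r = 0.429 and -0.188 with DMSO and 0.385 and 0.0608 with IBET151-VHL. Its replicates 1 and 2 lie in the runs of library numbers that hold replicates 2 and 3 of the VHL compounds. The block therefore joins IBET151 with libraries of other runs, and its blocked counts rest on a shared number alone. Blocking on runs of library numbers, all cytoplasmic reads gave 2 with JQ1, 3 with JQ1-VHL and 2 with IBET151-VHL, all nuclear reads 8 with JQ1, 6 with JQ1-VHL, 15 with IBET151-VHL, 5 with IBET151 and 2 for IBET151-VHL against IBET151. Nuclear T>C reads gave 7 with JQ1, 70 with JQ1-VHL, 3 with IBET151 and 53 for JQ1-VHL against JQ1, the shares 1 (cytoplasm, JQ1) and 69 (nucleus, JQ1-VHL), and nucleus against cytoplasm 23. Leaving out the highest run, added after seeing the data, gave 17 there. edgeR gave 1 for nuclear T>C reads of JQ1-VHL against JQ1. The causes were not tested.

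Leaving out 1 library at a time gave these ranges for genes called. For cytoplasmic T>C reads they were 52 to 59 (JQ1-VHL), 2 to 8 (JQ1), 55 to 60 (IBET151-VHL), 0 to 1 (IBET151), and 26 to 41 and 39 to 49 against the parents. For nuclear T>C reads they were 12 to 51, 0 to 0, 68 to 76, 0 to 0 in the same order, and 0 to 9 and 66 to 75. For the share they were 49 to 55, 0 to 2, 54 to 59 and 0 to 0 in the cytoplasm and 0 to 47, 0 to 0, 47 to 76 and 0 to 0 in the nucleus. All reads gave 0 in the cytoplasm except without DMSO replicate 2, where ATP5F1B passed with IBET151 (1) and ATP5F1B and ATP5PD with IBET151-VHL (2), and 0 to 1 in the nucleus with both VHL compounds. Nucleus against cytoplasm gave 6 to 21. Over the single genes named, 2198 of these results kept their direction and side of the threshold, 14 newly passed and 108 no longer passed. Depth limits the cytoplasmic T>C reads, with a median of 4 reads per gene over the 3 libraries of IBET151-VHL and 73 over those of DMSO, and 20 of the 83 genes were not tested.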
